A study of Mus musculus with 62 samples.

Results

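CD11b+ cells from the brains of APPPS1 mice were compared with those of WT mice at 12 months of age, in the libraries whose titles carry no further tag. CD11b is a surface integrin chain of microglia and other myeloid cells, and the series title calls the cells microglia. The comparison used 8 of the 62 RNA-seq libraries of the series: 5 of the genotype APPPS1, numbered 35, 36, 37, 38 and 41 in their titles, and 3 of the genotype WT, numbered 34, 39 and 40. APPPS1 mice carry human transgenes of an Alzheimer's disease model. The promoter and the line of the transgenes are not given in the sources used here, and both groups have intact Nlrp3. The other libraries came from mice without Nlrp3, from ages of 4 and 6 months and from further 12-month libraries tagged Mxo4, a tag that the labels do not spell out. The labels do not say whether libraries came from separate animals, so the spread behind each p-value is that between libraries, which may be technical. The fit shared that spread over all 62 libraries of the series. Read from Xist and the Y-linked genes Ddx3y, Uty, Eif2s3y and Kdm5d, all 8 libraries were female.

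Microglia are the resident macrophages of the brain, and transforming growth factor beta, colony-stimulating factor and contact with neurons maintain their resting program. Around deposits of amyloid beta they take on another program, in which the lipid receptor TREM2 and its adaptor TYROBP are needed for lipid handling, lysosomal and phagocytic genes. Type I interferons add a separate antiviral and antigen-presenting program, which textbook models place downstream of STAT factors and IRF9.

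Total counts were 14749215 to 23148202 in WT, 16738619 to 21456890 in 4 of the APPPS1 libraries and 6187249 in APPPS1 replicate 41. Levels below are counts per 1000000 counts of the library, scaled by the TMM method (CPM), in the order of replicates 35, 36, 37, 38 and 41 for APPPS1 and 34, 39 and 40 for WT. Differences are log2 values of APPPS1 minus WT ± standard error from edgeR's quasi-likelihood test, with Benjamini-Hochberg adjusted p over 19865 genes, and genes with an adjusted p under 0.05 are said to rise or fall. APPPS1 replicates 35 and 41 stood apart from 36, 37 and 38. Mitochondrial transcripts made up 1.33% and 1.19% of their counts, against 0.572% to 0.728% in the other APPPS1 libraries and 0.468% to 0.613% in WT. Ribosomal protein genes made up 1.59% and 1.60%, against 0.811% to 1.14% and 0.545% to 0.703%. Both carry the number 2 at the second place of 3 in their titles, as WT replicates 34 and 39 do, and this number was a term of the fit. The labels state 2 preparation batches but do not say whether this number gives them. Replicate 38 held 2847 CPM over 10 neutrophil marker genes, against 51.8 to 193 CPM in the other APPPS1 libraries and 90.3 to 294 CPM in WT. Microglial marker genes summed to 32124 to 43629 CPM in APPPS1 and 34462 to 39697 CPM in WT, and of the marker genes of 15 other cell types none was at 0 in all 8 libraries. In bulk RNA, fewer cells of a type and less RNA per cell cannot be told apart.

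The mouse gene App (ENSMUSG00000022892, chr16 84949685 to 85173766, - strand), whose human counterpart is a transgene of such models, did not pass the test. App lay at 278, 288, 295, 304 and 171 CPM in APPPS1 and 255, 227 and 257 CPM in WT (difference 0.10 ± 0.13, adjusted p 0.614). The counts are for the mouse gene, so they do not check the genotype. Prnp and Thy1, from which promoters of such transgenes are often taken, lay at 36.6 to 71.9 and 0 to 0.499 CPM in APPPS1 and at 26 to 44.6 and 0.0435 to 0.738 CPM in WT. Nlrp3, the inflammasome sensor intact in both groups, lay at 117, 183, 148, 168 and 80.7 CPM in APPPS1 and 60.4, 101 and 91.8 CPM in WT, with overlapping groups (difference 0.55 ± 0.26, adjusted p 0.137).

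In all, 3601 genes (18.1% of those tested) passed the test. Of these, 2212 (11.1%) rose and 1389 (6.99%) fell, and the median difference over all genes tested was -0.07. All 5 APPPS1 libraries lay above the 3 WT libraries for 1573 genes (7.92%) and below them for 1421 (7.15%). The counts of the gene groups below are to be read against these shares. Leaving out each of the 8 libraries in turn, 1260 rises and 454 falls passed every time. A fit of only these 8 libraries, without the spread of the others, gave 1398 rises and 561 falls. Within second title number 1 (3 APPPS1 libraries and 1 WT library) 460 rises and 121 falls passed, and within number 2 (2 and 2 libraries) 2724 and 2126. Scaling by total counts alone gave 1350 rises and 4417 falls and moved the median over all genes to -0.31, so differences are best read relative to that median. The shares in each direction also moved with transcript length. Among genes of at least 10 CPM in either group, 56.4% rose and 3.18% fell where the longest annotated transcript had at most 750 bases, and 6.39% rose and 16.7% fell above 6000 bases.

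**Figure D1:**
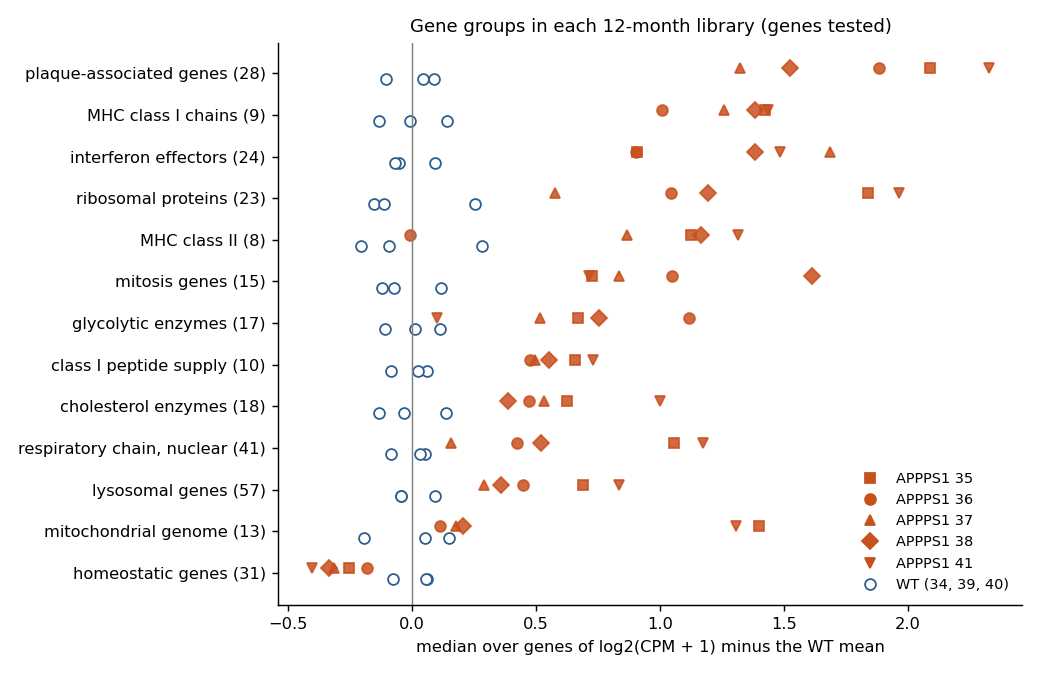
Median over the genes of each group of log2(CPM + 1) minus the mean of the 3 WT libraries (horizontal axis), 1 point per library, with the number of genes tested in brackets. The 28 plaque-associated genes lie between 1.33 and 2.33 in all 5 APPPS1 libraries, whereas the mitochondrial genome is at 1.40 and 1.31 in replicates 35 and 41 and at 0.12 to 0.21 in the other 3, and MHC class II is at -0.01 in replicate 36.

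Among genes that averaged 10 CPM or more in the group where they were higher, with all 5 APPPS1 libraries beyond the WT range and a call in every leave-out, the 15 largest rises were led by Trpm1, described below, Mamdc2 and Cst7. Mamdc2 (ENSMUSG00000033207, chr19 23302609 to 23448442, - strand), a protein with MAM domains, lay at 94.2, 159, 83, 32.6 and 160.2 CPM in APPPS1 and 0.805, 0.585 and 0.478 CPM in WT (difference 7.40 ± 0.97, adjusted p 1.41e-07). Cst7 (ENSMUSG00000068129, chr2 150570415 to 150578944, + strand), the cathepsin inhibitor cystatin F, lay at 2463, 1986, 1197, 1089 and 3790.1 CPM and 13.1, 9.58 and 17.3 CPM (difference 7.29 ± 0.76, adjusted p 1.12e-08). Gpnmb (ENSMUSG00000029816, chr6 49036546 to 49070929, + strand), a membrane glycoprotein of phagocytes, lay at 194, 28.7, 94.8, 35.3 and 366 CPM and 1.41, 1.54 and 2 CPM (difference 6.44 ± 1.08, adjusted p 1.17e-05). Replicates 35 and 41 were the highest for Gpnmb and Cst7, and 38 was the lowest of the 5 for Mamdc2 and Cst7. Dkk2 (ENSMUSG00000028031, chr3 132085292 to 132180304, + strand), a secreted inhibitor of WNT signals, lay at 8.74 to 61.8 CPM and 0.268 to 0.639 CPM (difference 6.33 ± 0.92, adjusted p 9.31e-07).

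Smaller rises of the same list included enzymes and a growth factor. Hpse (ENSMUSG00000035273, chr5 100679484 to 100719716, - strand), which encodes heparanase, the enzyme that cuts heparan sulfate chains, lay at 98.4, 66, 34.6, 49.9 and 76.3 CPM in APPPS1 and 0.805, 2.5 and 1.7 CPM in WT. The lowest APPPS1 library was well above the highest WT library, and the difference was 5.24 ± 0.65 (adjusted p 5.06e-08). Lox (ENSMUSG00000024529, chr18 52516067 to 52529867, - strand), the lysyl oxidase that cross-links collagen and elastin, lay at 68.9, 89.5, 48.1, 53.6 and 86.3 CPM and 1.68, 1.22 and 2.87 CPM (difference 5.15 ± 0.69, adjusted p 2.06e-07). Egln3 (ENSMUSG00000035105, chr12 54178981 to 54203860, - strand), a prolyl hydroxylase that marks HIF factors for degradation, lay at 68.7, 103, 40.7, 44.3 and 69.6 CPM and 1.41, 1.17 and 1.78 CPM (difference 5.45 ± 0.59, adjusted p 1.12e-08). Replicate 36 was highest for both Lox and Egln3. Igf1 (ENSMUSG00000020053, chr10 87858265 to 87937042, + strand), insulin-like growth factor I, lay at 316, 281, 133, 123 and 313 CPM and 5.17, 12.3 and 7.95 CPM (difference 4.79 ± 0.54, adjusted p 1.12e-08). Replicates 35, 36 and 41 were the highest for Igf1, and 37 and 38 were still far above WT.

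Among these largest rises were also genes with known roles outside the brain. Dcstamp (ENSMUSG00000022303, chr15 39745930 to 39760938, + strand), needed for the fusion of osteoclasts and macrophage giant cells, lay at 25.7, 26.7, 26.7, 8.07 and 23 CPM in APPPS1 and 0.805, 0.692 and 0.391 CPM in WT (difference 5.14 ± 0.81, adjusted p 3.96e-06). Atp6v0d2 (ENSMUSG00000028238, chr4 19876841 to 19922605, - strand), a subunit of the proton pump known from osteoclasts, lay at 26, 16, 7.51, 0.538 and 31.7 CPM and 0.403, 0 and 0.348 CPM, and replicate 38 stood just above the WT range (difference 5.96 ± 0.99, adjusted p 1.02e-05). Tcap (ENSMUSG00000007877, chr11 98383811 to 98384953, + strand), the titin cap protein of striated muscle, lay at 27.8, 46.7, 17.7, 9.34 and 18 CPM and 0.336, 0.266 and 0.391 CPM (difference 6.14 ± 0.91, adjusted p 1.36e-06). For these 3 genes replicate 38 was the lowest APPPS1 library. Trpm1 (ENSMUSG00000030523, chr7 64153835 to 64269775, + strand), a cation channel of retinal bipolar cells and melanocytes, lay at 27.1, 26.6, 16.1, 9.34 and 30.6 CPM in APPPS1 and 0.201, 0 and 0 CPM in WT, too low in WT for a fold. Baiap2l2 (ENSMUSG00000018126, chr15 79258195 to 79285537, - strand), a protein that bends membranes, lay at 29 to 58.5 CPM in APPPS1 and 0 to 0.956 CPM in WT. Lgi2 (ENSMUSG00000039252, chr5 52533517 to 52566462, - strand), a secreted leucine-rich repeat protein of the nervous system, lay at 13.5 to 25.5 CPM and 0 to 0.532 CPM. Btla (ENSMUSG00000052013, chr16 45224315 to 45257670, + strand), an inhibitory receptor of lymphocytes and myeloid cells, lay at 4.3 to 31.7 CPM and 0.426 to 0.652 CPM. Adjusted p were 4.06e-08, 3.76e-06 and 0.000376 for Baiap2l2, Lgi2 and Btla. The lack of overlap with WT in all genes of this list follows from the rule that chose them.

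**Figure D2:**
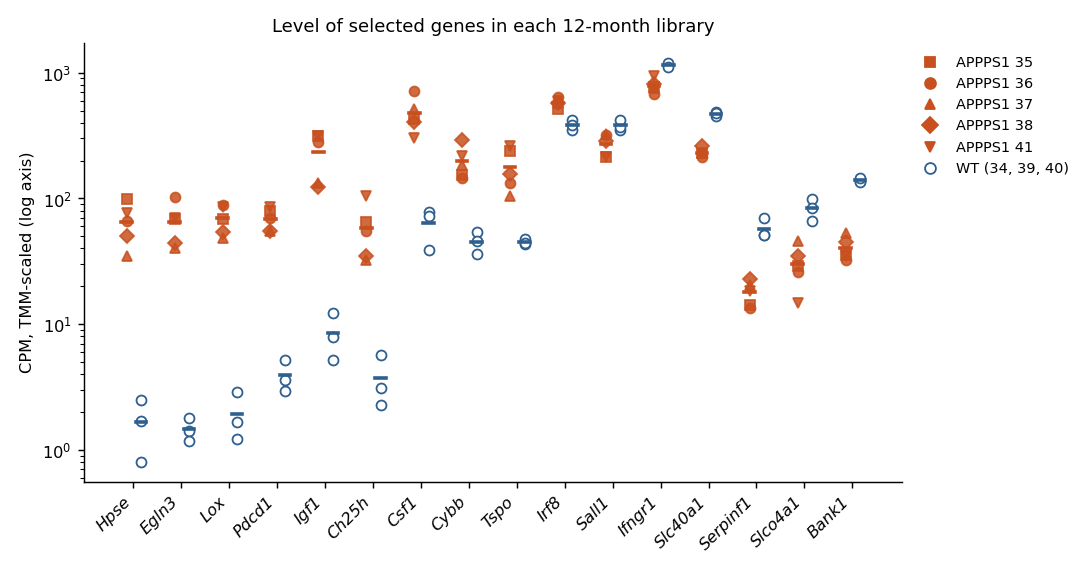
Level of 16 genes in each library (CPM on a log axis), with a horizontal line at the mean of each group. The genes were chosen after their values were seen, among those without overlap between the groups. From Hpse to Irf8 all 5 APPPS1 libraries lie above the 3 WT libraries, and from Sall1 to Bank1 all 5 lie below them. Over all genes tested these shares were 7.92% and 7.15%.

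The largest falls by the same rule were smaller than the largest rises. Median differences of marker genes were -1.75 for neurons, -0.82 for oligodendrocyte precursors, -0.62 for endothelium, -0.61 for astrocytes and -0.30 for microglia. Those above 0 were of neutrophils (1.51), monocytes (1.41), erythroid cells (0.55) and T cells (0.21). Of the neuron, precursor, endothelium and astrocyte genes only Pecam1 fell, while Gfap and Cspg4 rose. Both rises were lost without WT replicate 34 or 40, and that of Gfap also without APPPS1 replicate 37. The part of other cells in the falls was not tested. Bank1 (ENSMUSG00000037922, chr3 136053363 to 136326066, - strand), an adaptor of B-cell receptor and Toll-like receptor signals, lay at 35.2, 32.1, 53.5, 45.1 and 34.9 CPM in APPPS1 and 138, 135 and 145 CPM in WT. All 5 APPPS1 libraries lay well below WT, and the difference was -1.72 ± 0.23 (adjusted p 1.75e-07). Serpinf1 (ENSMUSG00000000753, chr11 75409769 to 75422701, - strand), pigment epithelium-derived factor, lay at 14.2, 13.5, 20.5, 22.9 and 18.4 CPM and 51.5, 69.9 and 51.3 CPM (difference -1.62 ± 0.24, adjusted p 1.10e-06). Slco4a1 (ENSMUSG00000038963, chr2 180456245 to 180474867, + strand), an organic anion carrier of thyroid hormones, lay at 29.2, 26, 45.6, 35.1 and 14.7 CPM and 66.7, 99.6 and 83.6 CPM (difference -1.47 ± 0.20, adjusted p 3.21e-07). Replicate 41, the shallowest library, was lowest for Slco4a1. Col6a3 (ENSMUSG00000048126, chr1 90765923 to 90843971, - strand), a collagen VI chain, lay at 8.41, 12.9, 14, 21.9 and 4.99 CPM and 34.6, 41 and 61.8 CPM (difference -1.98 ± 0.46, adjusted p 0.0012). Ligands of neuronal guidance receptors were among the falls. Efnb2 (ENSMUSG00000001300, chr8 8617434 to 8661242, - strand), the ephrin B2 ligand, lay at 4.49, 4.14, 9.83, 3.83 and 1.95 CPM and 14.9, 17.7 and 16.6 CPM (difference -1.88 ± 0.29, adjusted p 2.75e-06). The semaphorins Sema4b (ENSMUSG00000030539, chr7 80186841 to 80226527, + strand) and Sema6d (ENSMUSG00000027200, chr2 124089969 to 124667770, + strand) differed by -1.59 ± 0.25 and -1.50 ± 0.29 (adjusted p 4.65e-06 and 8.43e-05).

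Receptors and factors completed the list of falls. Gpr165 (ENSMUSG00000031210, chrX 96713441 to 96719388, + strand), an orphan receptor, lay at 12.6, 19.7, 23.4, 11.1 and 5.42 CPM in APPPS1 and 32.9, 53 and 71.6 CPM in WT (difference -1.85 ± 0.37). Vipr1 (ENSMUSG00000032528, chr9 121642716 to 121672954, + strand), a receptor of vasoactive intestinal peptide, lay at 1.71 to 5.51 CPM and 6.04 to 12.5 CPM (difference -1.58 ± 0.32). Il7r (ENSMUSG00000003882, chr15 9505788 to 9530176, - strand), the interleukin 7 receptor alpha chain, lay at 11.7, 9.7, 18.2, 6.59 and 11.9 CPM and 44.9, 24.8 and 27.9 CPM (difference -1.45 ± 0.25). Mycl (ENSMUSG00000028654, chr4 122995652 to 123002485, + strand), a MYC family factor, differed by -1.67 ± 0.40, the tetraspanin Tspan18 (ENSMUSG00000027217, chr2 93201760 to 93334505, - strand) by -1.52 ± 0.23, and Ccdc162 (ENSMUSG00000075225, chr10 41538846 to 41716634, - strand) by -1.64 ± 0.28. Adjusted p lay between 1.75e-06 and 0.0015 for these 6 genes, and by the rule of the list no APPPS1 library reached the WT range. Of the falls with at least 10 CPM, all 5 libraries beyond WT and every leave-out passing, 327 in all, 30 were predicted genes, RIKEN clones or pseudogenes and were counted, not named. The like number among 928 such rises was 81.

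The homeostatic program fell in part. Of 31 genes tested, 10 fell and 1 rose, against 6.99% and 11.1% of all genes, with a median of -0.25. Of the 10 falls 6 passed in every leave-out. Within second title number 2, 9 fell and 5 rose. With total counts alone 19 fell, where 4417 of all genes did. Factors that define microglia moved apart. Sall1 (ENSMUSG00000031665, chr8 89027235 to 89044162, - strand), a repressor specific to microglia in the brain, lay at 215, 317, 325, 285 and 216 CPM in APPPS1 and 353, 369 and 424 CPM in WT (difference -0.50 ± 0.12, adjusted p 0.00265). Mef2a, a factor at microglial enhancers, lay at 638, 699.8, 744, 709.5 and 504 CPM and 986, 863 and 1088 CPM (difference -0.57 ± 0.14, adjusted p 0.00245). Irf8, a factor of the macrophage lineage, was the gene of this list that rose, at 511, 636, 573, 571 and 601 CPM against 348, 421 and 381 CPM (difference 0.61 ± 0.13, adjusted p 0.000483). None of these 3 genes overlapped between the groups. Maf fell by 0.51 ± 0.15 (adjusted p 0.0118), a call lost without WT replicate 40. Spi1, the lineage factor PU.1, lay at 178, 201, 206, 228 and 183 CPM and 165, 240.1 and 189 CPM (difference 0.00 ± 0.12; named after its values were seen), and Mef2c and Klf2 did not pass the test either. Among surface proteins, Slc2a5, the fructose carrier GLUT5, lay at 572, 491, 435, 472 and 373 CPM and 721, 799.5 and 737 CPM (difference -0.67 ± 0.16, adjusted p 0.00193). P2ry12, the ADP receptor of microglial processes, lay at 5606, 3723, 3431, 4273 and 8180.2 CPM and 6044, 7018 and 6824 CPM, with replicate 41 above WT and the other 4 below it (adjusted p 0.135). Csf1r did not pass (difference -0.25 ± 0.19).

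In the transforming growth factor beta pathway 3 of 21 genes fell and 1 rose, against 6.99% and 11.1% of all genes, with a median of -0.17, and without replicates 35 and 41 none fell. Itgav, the integrin alpha V chain that helps to release the active ligand, lay at 175, 198, 219.7, 199 and 96.7 CPM and 282, 242 and 325 CPM (difference -0.68 ± 0.16, adjusted p 0.00111). The ligand Tgfb1 (-0.04 ± 0.13), its microglial anchor Nrros (-0.01 ± 0.13) and the receptors Tgfbr1 (-0.33 ± 0.16) and Tgfbr2 (0.34 ± 0.16) did not pass. Tgif1, a repressor of SMAD factors, rose (difference 0.64 ± 0.17, adjusted p 0.00361). Among the signal factors the median turned from -0.14 to 0.03 when the trend with transcript length was removed.

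All 28 genes tested of the plaque-associated program rose, with all 5 APPPS1 libraries above WT for each, and a median of 2.05. The list was drawn from amyloid models and was chosen with earlier results of these data known, so its direction is not independent evidence. Lpl, lipoprotein lipase, lay at 607, 601, 464, 422 and 753 CPM in APPPS1 and 24.4, 26 and 43.7 CPM in WT (difference 4.19 ± 0.50, adjusted p 2.78e-08). Clec7a, the receptor dectin 1, lay at 1816, 1111, 691, 1049 and 2640.4 CPM and 61.9, 58.5 and 83.2 CPM (difference 4.42 ± 0.51). Ank, a pyrophosphate exporter, lay at 721, 885, 623, 339 and 716 CPM and 47.2, 56.5 and 56.4 CPM (difference 3.61 ± 0.41). Itgax, the CD11c chain, lay at 277, 269, 222, 93.5 and 194 CPM and 10.9, 9.58 and 20.7 CPM (difference 3.93 ± 0.50). Csf1, the ligand of CSF1R, lay at 432, 718, 517, 403 and 302 CPM and 39.1, 78.2 and 72.8 CPM (difference 2.82 ± 0.36). Replicate 38 was the lowest APPPS1 library for Ank and Itgax and replicate 41 for Csf1.

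In the TREM2 pathway the receptor complex and its downstream kinases did not move together. Tyrobp (ENSMUSG00000030579, chr7 30413760 to 30417585, + strand), the adaptor that pairs with TREM2, lay at 6134, 3553, 2322, 3457 and 7718 CPM in APPPS1 and 979, 875 and 948 CPM in WT (difference 2.32 ± 0.27, adjusted p 2.38e-08). Lat2, a membrane relay of the same signal, lay at 275, 221, 217, 241 and 359.95 CPM and 139, 153 and 133 CPM (difference 0.91 ± 0.14, adjusted p 4.39e-06). Syk, the kinase recruited by TYROBP, lay at 151, 166, 173, 182 and 94.1 CPM and 171, 192 and 226 CPM, with overlapping groups, and fell by 0.39 ± 0.13 (adjusted p 0.029). The call for Syk was lost without APPPS1 replicate 41 or WT replicate 39 or 40. The other relays did not pass, among them Inpp5d (-0.39 ± 0.14, adjusted p 0.0501), Pik3cg (-0.28 ± 0.11) and Vav1 (-0.24 ± 0.12). Over the 12 genes 3 rose and 1 fell, with a median of -0.21. Of 22 genes in which variants are known to change the risk of Alzheimer's disease, 3 rose and 3 fell, against 11.1% and 6.99% of all genes, with a median of -0.09. Cass4, a scaffold of focal adhesions, lay at 10.3, 16, 20.8, 12.6 and 12.4 CPM and 28.3, 42.4 and 38.8 CPM (difference -1.32 ± 0.27, adjusted p 0.000328). Bin1, which bends membranes of endosomes, fell by 0.34 ± 0.11, a call lost without APPPS1 replicate 41 or WT replicate 39 or 40. Cd33, an inhibitory Siglec, fell by 0.37 ± 0.13, lost without APPPS1 replicate 35, 36 or 41 or WT replicate 39 or 40. Grn, the precursor of lysosomal granulins, rose by 0.53 ± 0.19, lost without APPPS1 replicate 36, 37 or 38 or WT replicate 34 or 40.

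**Figure D3:**
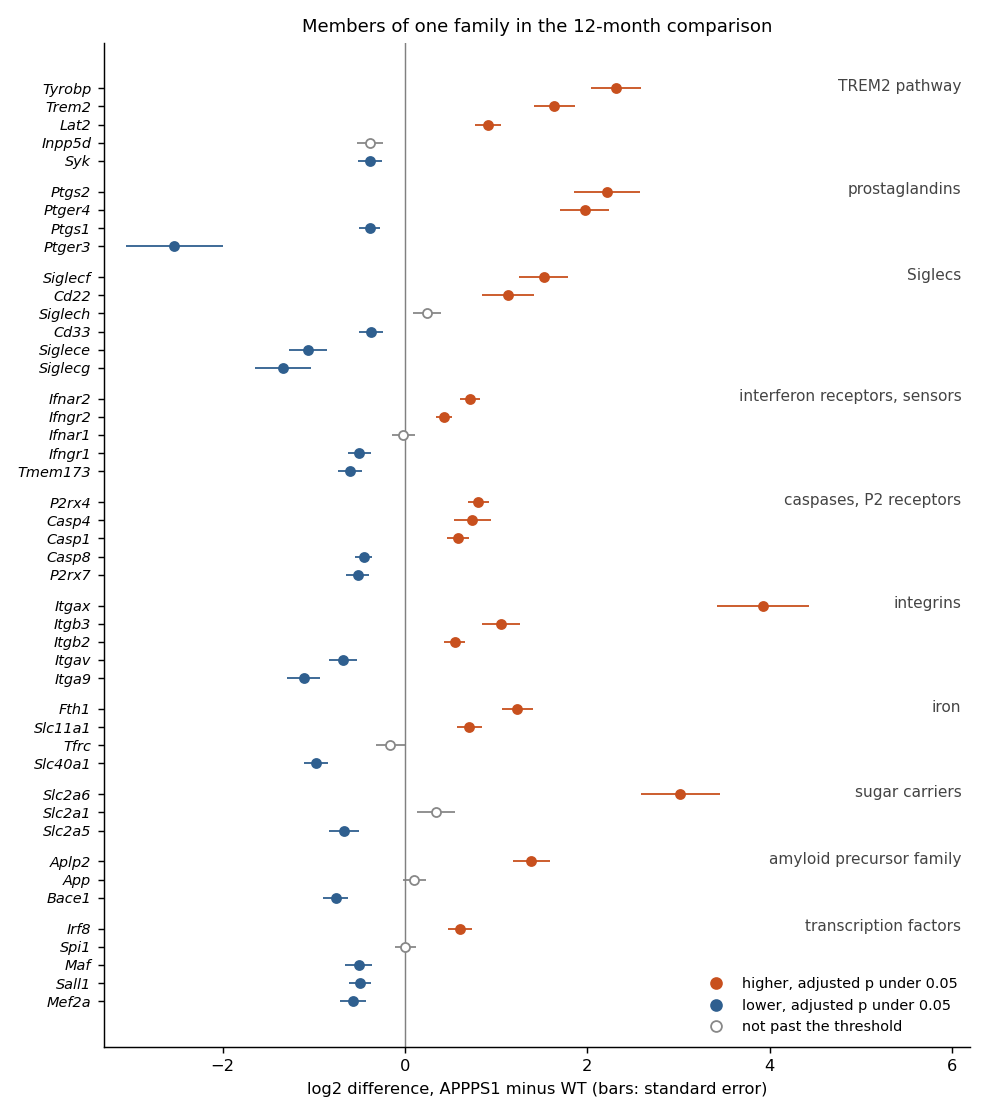
Log2 difference of APPPS1 minus WT with its standard error (horizontal axis) for 45 genes in 10 families, chosen after their values were seen. Filled points passed an adjusted p of 0.05 in either direction and open points did not, and each family holds genes that rose and genes that fell.

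Interferon genes rose at the level of effectors and signal factors, and the receptor chains moved both ways. Of 46 genes tested, 31 rose and 3 fell, against 11.1% and 6.99% of all genes, with a median of 0.76. Among effectors 21 of 24 rose, with a median of 1.38, and all 5 APPPS1 libraries lay above WT for 18 of them. Of the 31 rises 21 passed in every leave-out, 15 of them effectors. Ifi27l2a (ENSMUSG00000079017, chr12 103442167 to 103443680, - strand), an interferon-induced mitochondrial protein, lay at 253, 79.97, 78.9, 93.3 and 216 CPM in APPPS1 and 7.18, 8.41 and 11.8 CPM in WT (difference 3.96 ± 0.56, adjusted p 5.86e-07). Replicates 35 and 41 were the highest for it. Irf7, a factor that is both a target and an amplifier of type I interferon, lay at 20.5, 26.4, 61, 42.2 and 31 CPM and 10.9, 13.4 and 11.2 CPM (difference 1.52 ± 0.31, adjusted p 0.000247). Replicate 37 was the highest for Irf7 and 35 the lowest. Irf9, a DNA-binding part of the factor complex that type I interferons activate, lay at 117, 114, 123, 120.3 and 158 CPM and 67.5, 81.7 and 91.6 CPM (difference 0.67 ± 0.12, adjusted p 6.06e-05). Stat2, a further part of that complex, did not pass (0.46 ± 0.18, adjusted p 0.0638). Usp18, which switches off the interferon receptor, lay at 34, 37.8, 62.5, 52.8 and 73.7 CPM and 14.9, 10.5 and 16.3 CPM (difference 1.92 ± 0.33, adjusted p 1.63e-05). Zbp1, a sensor of Z-form nucleic acids, lay at 14, 11.7, 27.8, 23.5 and 18.9 CPM and 1.88, 2.34 and 2.65 CPM (difference 3.05 ± 0.43, adjusted p 5.45e-07).

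Receptor chains and sensors went both ways. Ifnar2, a chain of the type I receptor, lay at 343, 339, 274, 271 and 462 CPM and 212, 207 and 208 CPM (difference 0.71 ± 0.11, adjusted p 2.78e-06), whereas its partner Ifnar1 differed by -0.02 ± 0.13. Ifngr2 rose by 0.43 ± 0.09. Ifngr1, the ligand-binding chain of the interferon gamma receptor, lay at 763, 679, 755, 811 and 948 CPM and 1149, 1203 and 1119.8 CPM and fell by 0.50 ± 0.13 (adjusted p 0.00376). Tmem173, the DNA-sensing adaptor STING, lay at 276, 261, 305, 278 and 428 CPM and 439, 531 and 479 CPM and fell by 0.60 ± 0.13 (adjusted p 0.000529). All 5 APPPS1 libraries lay below WT for Ifngr1 and for Tmem173. The RNA sensors Ifih1 and Dhx58 rose by 0.61 ± 0.15 and 0.70 ± 0.19 (lost without WT replicate 39 for the first and WT replicate 34 for the second), while Ddx58 and Cgas did not pass. Tlr3 fell by 0.36 ± 0.11, a call lost without APPPS1 replicate 35 or WT replicate 40. Scaled by total counts alone, the median of the receptors turned from 0.20 to -0.03 and that of the sensors from 0.19 to -0.07.

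The promoters of the effectors were read for the interferon-stimulated response element, a site bound by the complex that holds IRF9, here GAAA, then 2 bases of any kind (NN), then GAAA, on either strand. RefSeq promoters (GRCm38.p6, 250 bases before to 50 after the start) were matched for 18 of the 24 effectors, and 12 of the 18 (66.7%) held the letters, against 1079 of 27025 genes (3.99%) and 498 of 12702 genes tested (3.92%). In the last 150 bases before the start the counts were 9 of the 18 (50%) and 1.85% of all genes. Stretches of the promoters of 4 effectors are shown to place the element. They were chosen after their values were seen, and capitals mark 1 match each.
Ifit1, chr19:34640760-34640819, + strand: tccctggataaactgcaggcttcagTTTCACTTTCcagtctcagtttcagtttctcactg
Ifit3, chr19:34583348-34583407, + strand: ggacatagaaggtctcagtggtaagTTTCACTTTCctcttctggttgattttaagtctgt
Isg15, chr4:156200856-156200915, - strand: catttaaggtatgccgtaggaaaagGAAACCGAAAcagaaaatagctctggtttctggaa
Bst2, chr8:71537562-71537621, - strand: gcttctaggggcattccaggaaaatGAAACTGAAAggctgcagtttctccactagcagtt
The matches begin 104, 156, 72 and 124 bases before the start. Ifit1, an RNA-binding antiviral protein, lay at 16.8, 14.8, 26.2, 25.9 and 31.7 CPM in APPPS1 and 11.8, 6.28 and 9.3 CPM in WT (difference 1.39 ± 0.30). Its relative Ifit3 lay at 46.4, 43.2, 86.8, 70.6 and 68.1 CPM and 24.1, 20.1 and 17.5 CPM (difference 1.70 ± 0.35). Isg15, a ubiquitin-like modifier, lay at 9.97, 9.17, 15.9, 12.4 and 9.76 CPM and 2.62, 5.16 and 5.17 CPM (difference 1.36 ± 0.30). Adjusted p were 0.000524, 0.000313 and 0.000727. A match shows only that the letters are in the window. Of the interferon genes that rose, 12 of 21 matched genes held the letters, and of the others 4 of 13.

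Antigen presentation rose most in class I. Of 33 genes 21 rose and none fell, with a median of 0.93, and all 9 class I chains rose, with all 5 APPPS1 libraries above WT for each. H2-D1 (ENSMUSG00000073411, chr17 35262730 to 35267499, + strand), a classical class I heavy chain, lay at 2522, 2458, 3461, 3132 and 2689 CPM in APPPS1 and 658, 1006 and 904 CPM in WT (difference 1.72 ± 0.28, adjusted p 6.64e-06; named after its values were seen). The class I chains are close relatives and the way the counting treated shared reads is not given in the sources used here, so values of single chains are uncertain. Of 10 genes of peptide supply 6 rose, among them the proteasome activator Psme1 at 190.2, 152, 152, 149.9 and 249 CPM and 106, 97.3 and 94.4 CPM (difference 0.86 ± 0.14) and the immunoproteasome subunit Psmb8 at 234, 185, 172, 206 and 350.2 CPM and 107, 133 and 117 CPM (difference 0.96 ± 0.16). Tapbp and Tap2 did not pass. Class II was uneven across libraries. H2-Aa (ENSMUSG00000036594, chr17 34282744 to 34287823, - strand), the class II alpha chain, lay at 507, 50.6, 224, 290.2 and 305 CPM and 67.2, 103 and 79.2 CPM, so 4 APPPS1 libraries lay above WT and replicate 36 below it (difference 1.71 ± 0.47, adjusted p 0.00679). H2-Eb1 too lay above WT in 4 APPPS1 libraries and below it in replicate 36, at 157, 30.4, 128, 166 and 144 CPM and 48.1, 91 and 52.6 CPM. It did not pass (adjusted p 0.147), and 5 of the 8 class II genes rose, but 1 without replicates 35 and 41. Cd274, the checkpoint ligand PD-L1, lay at 133, 129, 95, 92.1 and 91.9 CPM and 28.3, 25.9 and 30.4 CPM (difference 1.97 ± 0.27, adjusted p 2.39e-07), whereas the co-stimulators Cd86 (0.19 ± 0.11), Cd80 (-0.26 ± 0.16) and Icosl (-0.28 ± 0.12) did not pass.

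**Figure D4:**
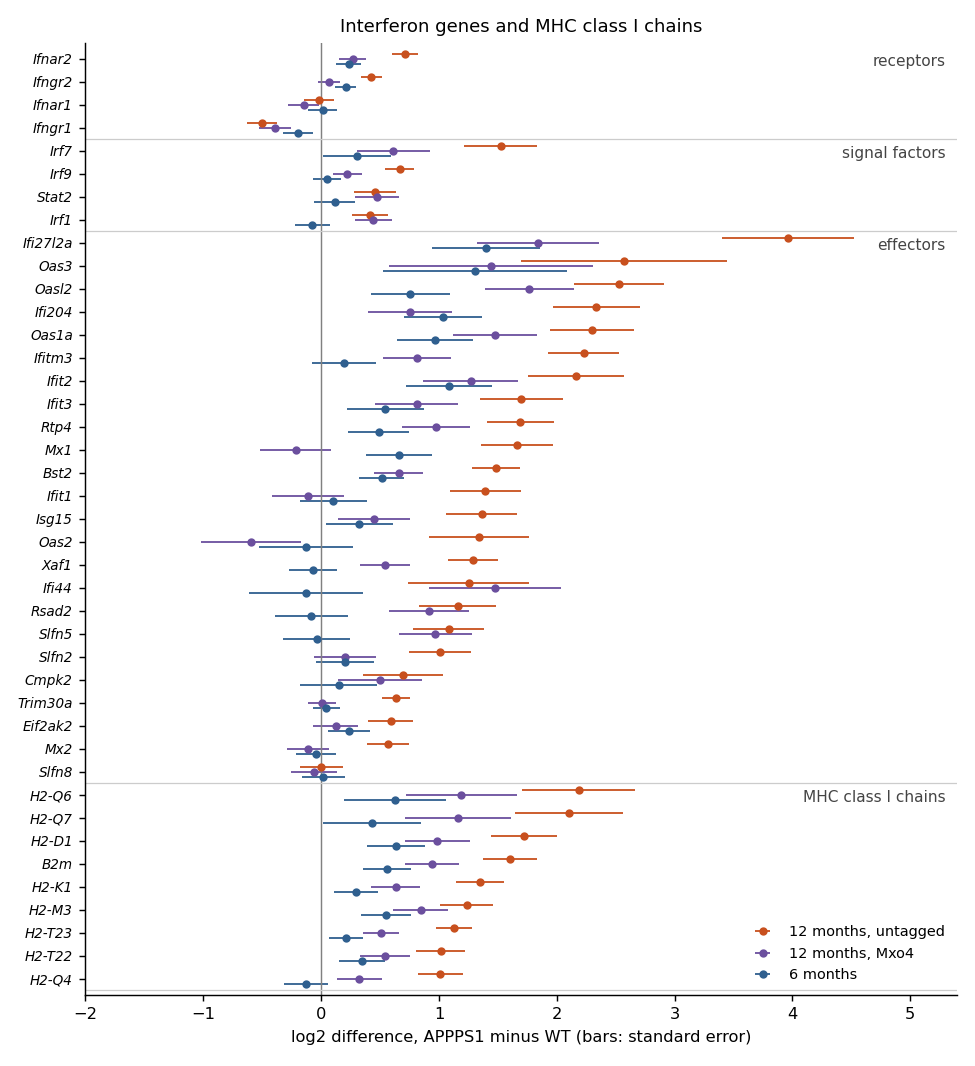
Log2 difference of APPPS1 minus WT with its standard error (horizontal axis) for 41 interferon and class I genes, in the untagged 12-month libraries, the Mxo4 libraries and at 6 months. The medians of the 24 effectors are 1.38, 0.71 and 0.22 and those of the 9 class I chains 1.34, 0.84 and 0.43 in these 3 comparisons, with 0.98 and 1.07 for Mxo4 without its APPPS1 replicate 56, whose Cst7 level goes against its label, and Ifngr1 is below 0 in all 3.

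Lysosomal genes rose across enzymes, membrane proteins and the proton pump. Of 57 genes 38 rose and 1 fell, with a median of 0.60, and without replicates 35 and 41 29 rose and none fell. Among glycosidases and sulfatases 10 of 14 rose. Glb1 (ENSMUSG00000045594, chr9 114401076 to 114474898, + strand), lysosomal beta-galactosidase, lay at 234, 243, 191, 176 and 246 CPM in APPPS1 and 83.5, 90.9 and 88.6 CPM in WT (difference 1.33 ± 0.17, adjusted p 1.41e-07). Naglu, which degrades heparan sulfate, lay at 389.8, 330.3, 235, 269 and 277 CPM and 106, 148 and 127 CPM (difference 1.24 ± 0.17). Among proteases 8 of 12 rose. Ctsz, cathepsin Z, lay at 4147, 4247, 3099, 3423 and 6313 CPM and 1449.8, 1543 and 1314 CPM (difference 1.59 ± 0.22, adjusted p 5.86e-07), and Ctsb and Ctsl rose by 1.46 ± 0.21 and 1.47 ± 0.24. Lgmn, Ctsc and Ctsf did not pass (differences -0.04 to 0.18). Of the 15 proton pump subunits 12 rose, with a median of 0.53, and 8 without replicates 35 and 41. Atp6v1c1 lay at 496, 413, 318, 361 and 647 CPM and 239, 255 and 241 CPM (difference 0.89 ± 0.15, adjusted p 6.51e-06). The factors that control lysosomal genes went both ways. Tfeb did not pass (-0.13 ± 0.13), Mitf rose by 0.40 ± 0.13 (lost without APPPS1 replicate 35 or WT replicate 39 or 40) and Tfe3 fell by 0.34 ± 0.11 (lost without APPPS1 replicate 35 or 41 or WT replicate 39).

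Promoters of lysosomal genes were read for the CLEAR element, the site of those factors, as the letters TCACGTGA, which read the same on both strands. Of 43 matched genes 6 (14%) held it, against 304 of 27025 genes (1.12%) and 248 of 12702 genes tested (1.95%). In the last 150 bases before the start the shares were 9.3% and 0.725%. The matched stretches of a protease and a pump subunit show its place, with the element in capitals.
Ctsd, chr7:142387894-142387951, - strand: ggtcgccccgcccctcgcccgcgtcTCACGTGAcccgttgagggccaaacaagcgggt
Atp6v1a, chr16:44139359-44139416, - strand: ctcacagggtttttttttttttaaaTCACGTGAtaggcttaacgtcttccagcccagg
The elements begin 99 and 132 bases before the start. Ctsd, cathepsin D, lay at 28098, 23884, 16427, 16627 and 30392 CPM in APPPS1 and 7236, 8396 and 7963 CPM in WT (difference 1.57 ± 0.27). Atp6v1a, the catalytic subunit of the pump, lay at 260.01, 222, 154, 219.6 and 203 CPM and 144, 171 and 116 CPM (difference 0.60 ± 0.14). All 5 APPPS1 libraries lay above WT for Ctsd and 4 for Atp6v1a. These 2 genes were chosen for their promoters after their values were seen (adjusted p 1.74e-05 and 0.0011). The letters stood in 5 of 28 matched lysosomal genes that rose and in 1 of 15 that did not.

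Cholesterol genes rose together with genes of lipid uptake and storage. Of 24 genes of cholesterol synthesis and its control 15 rose and none fell, with a median of 0.59. Sc5d, a late enzyme of the pathway, lay at 74.2, 69.1, 60.3, 67 and 96.3 CPM in APPPS1 and 35.8, 36 and 30.3 CPM in WT (difference 1.13 ± 0.14, adjusted p 7.89e-08). Cyp51, lanosterol demethylase, rose by 1.15 ± 0.18 and Dhcr7, the last reductase, by 0.98 ± 0.17. Insig1, which holds the SREBP factors back, lay at 77.3, 80.2, 72.9, 67.5 and 105 CPM and 31.7, 40.7 and 41.3 CPM (difference 1.06 ± 0.16, adjusted p 3.07e-06). Srebf2 and Srebf1, the factors themselves, rose by 0.79 ± 0.17 and 0.67 ± 0.15. Ch25h (ENSMUSG00000050370, chr19 34473778 to 34475164, - strand), cholesterol 25-hydroxylase, lay at 65, 54.6, 32.6, 34.5 and 105 CPM and 2.28, 3.09 and 5.74 CPM (difference 3.94 ± 0.54, adjusted p 3.39e-07). For Ch25h the groups were far apart. Sterol exporters did not pass (Abca1 -0.29 ± 0.15, Abcg1 0.29 ± 0.13), and Cyp27a1, another sterol hydroxylase, fell by 0.31 ± 0.10, a call lost without APPPS1 replicate 35 or WT replicate 39 or 40.

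Over the 35 lipid genes 14 rose and 4 fell, with a median of 0.62. Soat1, which esterifies cholesterol for droplets, lay at 204, 230.03, 189.5, 204 and 309 CPM and 102, 116 and 113 CPM (difference 1.04 ± 0.16, adjusted p 4.05e-06). Npc2 and Lipa, which handle cholesterol in the lysosome, rose by 1.50 ± 0.19 and 0.75 ± 0.11. Lipases of the droplet went the other way. Pnpla2 fell by 0.49 ± 0.16 (lost without APPPS1 replicate 41 or WT replicate 39), Lipe by 0.50 ± 0.16 (lost without APPPS1 replicate 35 or 41 or WT replicate 39) and Mgll by 0.60 ± 0.17 (lost without WT replicate 39). Without replicates 35 and 41 together 1 of the 35 genes fell. Dgat1, Dgat2 and Acsl1, which make and supply triglycerides, did not pass.

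Glycolysis and the oxygen response rose in part. Of 29 glycolytic genes 16 rose and 3 fell, with a median of 0.40. Pgk1 lay at 244, 238, 138, 178 and 335 CPM in APPPS1 and 75.6, 79 and 74.6 CPM in WT (difference 1.57 ± 0.19, adjusted p 2.56e-08). Tpi1 rose by 1.65 ± 0.21 and Pgam1 by 0.98 ± 0.13. Slc16a3, the lactate exporter MCT4, lay at 105, 163, 85.5, 136 and 63.5 CPM and 25, 31.9 and 36.9 CPM (difference 1.71 ± 0.22, adjusted p 1.38e-07). Of the sugar carriers, Slc2a6 rose from 1.41, 2.87 and 1.78 CPM to 21.4, 13.7, 14.3, 20.6 and 13.4 CPM (3.02 ± 0.43) while Slc2a5 fell and Slc2a1 (0.34 ± 0.21) did not pass. The first enzyme went the other way, with Hk1 lower (difference -0.57 ± 0.19, lost without APPPS1 replicate 35 or 41 or WT replicate 39 or 40) and Hk2 (0.07 ± 0.11) and Hk3 (-0.25 ± 0.15) not past the threshold. Of 16 oxygen-response genes 5 rose and none fell, with a median of 0.19 that turned to -0.04 when scaled by total counts alone. Bnip3, a mitophagy receptor, lay at 255, 227, 105, 179 and 284 CPM and 84, 78.7 and 74.9 CPM (difference 1.42 ± 0.18, adjusted p 1.07e-07). Vhl, Kdm3a and Bnip3l did not pass.

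All 23 ribosomal protein genes rose, with a median of 1.54. Rpsa, a small-subunit protein, lay at 354, 234, 189.5, 274 and 496 CPM in APPPS1 and 98.6, 89.5 and 82.2 CPM in WT, highest in replicates 35 and 41 and above WT in all 5 (difference 1.78 ± 0.20, adjusted p 1.12e-08). Without replicates 35 and 41 22 of the 23 rose and the median was 0.98. With the length trend removed all 23 rose and the median was 1.30. Of 54 genes of the respiratory chain 34 rose and none fell, with a median of 0.81, but only 6 rose without replicates 35 and 41, and 27 with the length trend removed. Ndufa1, a complex I subunit, lay at 261, 114, 82.2, 119 and 232 CPM and 34.8, 31.8 and 34.2 CPM (difference 2.26 ± 0.28, adjusted p 5.06e-08). Uqcrb, of complex III, lay at 347, 79.2, 66.8, 103 and 153 CPM and 73.7, 70.4 and 76.4 CPM, with replicate 35 far above the others and 37 below WT, and its call was lost without APPPS1 replicate 35. Of the 13 genes of the mitochondrial genome 2 rose, and mt-Cytb lay at 2748, 1246, 1319, 1329 and 3199 CPM and 1276, 1205 and 990.4 CPM (adjusted p 0.106). Beyond these alternatives the part of transcript length and of replicates 35 and 41 in single genes was not tested.

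**Figure D5:**
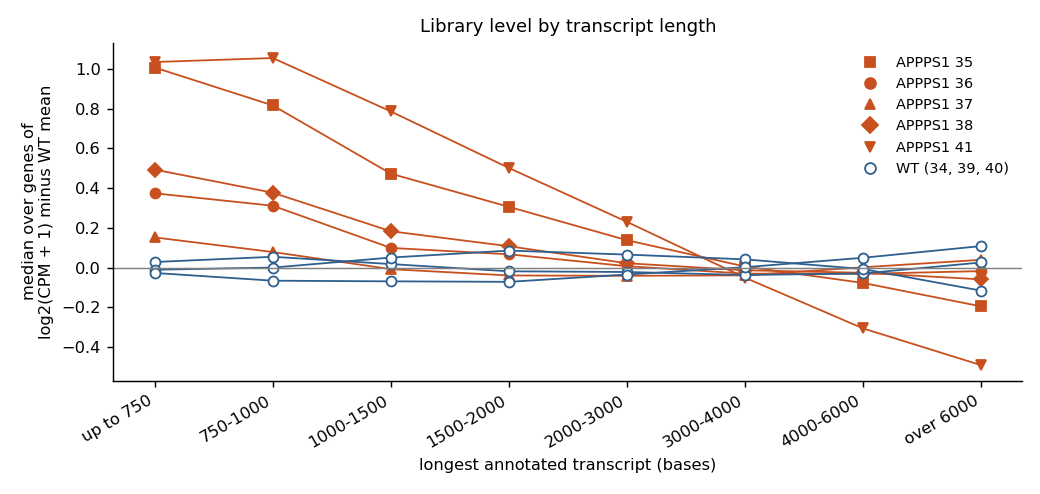
Median over genes of at least 10 CPM of log2(CPM + 1) minus the WT mean (vertical axis) in 8 bins of the longest annotated transcript (horizontal axis), 1 line per library. Replicates 35 and 41 fall from 1.01 and 1.04 in the shortest bin to -0.20 and -0.49 in the longest, and replicates 36, 37 and 38 start at 0.37, 0.15 and 0.49.

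Genes of the inflammasome split between effectors. Casp1, the protease that matures interleukin 1 beta, lay at 103, 67.8, 69.4, 85.2 and 151 CPM in APPPS1 and 71.9, 65.4 and 58.5 CPM in WT, with replicates 36 and 37 inside the WT range (difference 0.59 ± 0.12, adjusted p 0.000293). Casp8, a protease of cell death and of priming, lay at 161, 149.9, 154, 142 and 195 CPM and 238, 228 and 214 CPM, all 5 below WT (difference -0.45 ± 0.09, adjusted p 0.00012). P2rx7, the ATP-gated channel upstream of NLRP3, lay at 99.2, 155, 189, 152 and 104 CPM and 177, 215 and 199 CPM, with replicate 37 inside the WT range (difference -0.52 ± 0.12, adjusted p 0.00155). Casp4 rose by 0.74 ± 0.21 (lost without WT replicate 34) and the adaptor Pycard by 0.57 ± 0.16 (lost without APPPS1 replicate 35 or WT replicate 39). Nlrp1b fell by 0.57 ± 0.17, lost without APPPS1 replicate 35 or 41 or WT replicate 34 or 40, and Nek7 did not pass (0.28 ± 0.10, adjusted p 0.0503). Over the 22 genes 8 rose and 3 fell, with a median of 0.42. In the interleukin 1 family 5 of 9 genes rose. Il18bp, which binds interleukin 18, lay at 15.2, 14.5, 20.9, 13.6 and 19.3 CPM and 7.38, 5.48 and 7.78 CPM (difference 1.28 ± 0.24, adjusted p 6.37e-05), and Il18 itself did not pass (0.27 ± 0.16). Il1r2, a decoy receptor, lay at 4.49, 2.76, 5.2, 37.6 and 4.77 CPM in APPPS1, high in replicate 38, the library with the high neutrophil markers.

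Chemokines and tumour necrosis factor ligands rose and none of 35 genes fell. Of the 35, 16 rose, with a median of 1.06. Ccl6 (ENSMUSG00000018927, chr11 83587882 to 83593087, - strand), a chemokine of myeloid cells, lay at 1448, 711, 630.4, 697 and 1979.7 CPM in APPPS1 and 136, 138 and 152 CPM in WT (difference 2.94 ± 0.34, adjusted p 1.57e-08). Tnfsf9, the 4-1BB ligand, lay at 96.2, 90.8, 51.5, 89.4 and 99.1 CPM and 10.9, 19.2 and 13.3 CPM (difference 2.53 ± 0.38, adjusted p 1.73e-06). Tnfsf8, the CD30 ligand, lay at 68.5, 52.8, 44.3, 50.9 and 79.8 CPM and 10.9, 3.67 and 11 CPM (difference 2.80 ± 0.44). Osm, oncostatin M, lay at 183, 240.1, 153, 185 and 209 CPM and 83.8, 92.3 and 79.8 CPM (difference 1.19 ± 0.20). Cxcl16, a ligand and scavenger, lay at 269, 279, 239.5, 291 and 301 CPM and 126, 143 and 126 CPM (difference 1.06 ± 0.16). In all 5 genes the groups were apart. Ccrl2, a chemerin-binding receptor, lay at 894, 966, 615, 819.5 and 1592 CPM and 253, 250.5 and 199 CPM (difference 2.08 ± 0.30), and Cxcr4 rose by 3.36 ± 0.50. Ccl2, Ccl7 and Ccl9 did not pass (differences 0.43, -0.09 and 0.24), nor did the receptor Cx3cr1 (-0.64 ± 0.26, adjusted p 0.0747). Ccr6, the receptor of CCL20, lay at 2.78, 81, 0.939, 2.08 and 3.47 CPM in APPPS1 and 109.6, 2.5 and 1.74 CPM in WT, high in 1 library of each group.

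None of the 5 NF-kappaB subunits passed, whereas targets did. Over 23 genes 6 rose and none fell, with a median of 0.28. Nfkb1 differed by -0.23 ± 0.11 and Rela by -0.23 ± 0.13. The inhibitors Tnfaip3 and Nfkbiz rose by 0.82 ± 0.23 and 0.87 ± 0.24, calls lost without WT replicate 40 for the first and WT replicate 34 or 40 for the second. The survival genes Bcl2a1a, Bcl2a1b and Bcl2a1d rose by 2.12 ± 0.32, 1.78 ± 0.25 and 3.76 ± 0.43. They are near-identical copies, so the split between them is uncertain. In prostaglandin signalling the inducible and the constitutive enzymes differed in direction. Ptgs2 (ENSMUSG00000032487, chr1 150100031 to 150108227, + strand), cyclooxygenase 2, lay at 221, 147, 116, 177 and 182 CPM and 30.9, 34.6 and 43.6 CPM (difference 2.21 ± 0.36, adjusted p 5.91e-06). Ptgs1, cyclooxygenase 1, lay at 699, 821, 859, 828 and 844 CPM and 1081, 1176 and 982 CPM and fell by 0.39 ± 0.12 (adjusted p 0.0163), a call lost without APPPS1 replicate 35 or WT replicate 39. Of the prostaglandin E2 receptors, Ptger4 lay at 67.9, 72.1, 47, 70.04 and 62.2 CPM and 11.8, 19.2 and 16.8 CPM (difference 1.97 ± 0.27), while Ptger3, the largest of the falls by the rule above, lay at 1.21 to 2.23 CPM and 4.83 to 13.6 CPM (difference -2.53 ± 0.53). Over 16 genes of the pathway 3 rose and 2 fell.

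Receptors that recognise microbes, debris and antibodies moved in both directions. Of 47 genes 14 rose and 5 fell, with a median of 0.33. Tlr2 lay at 985, 991, 664, 737 and 818 CPM in APPPS1 and 312, 345 and 316 CPM in WT (difference 1.39 ± 0.22, adjusted p 3.83e-06). Tlr5, the flagellin receptor, lay at 5.06, 9.33, 10.1, 10.1 and 8.67 CPM and 18.1, 19.1 and 20.4 CPM, all 5 below WT (difference -1.10 ± 0.23, adjusted p 0.000302). Tlr4 and Tlr7 did not pass. Axl (ENSMUSG00000002602, chr7 25757273 to 25788705, - strand), a receptor for dying cells, lay at 288, 400.2, 427, 421 and 321 CPM and 17.4, 34.1 and 34.6 CPM (difference 3.63 ± 0.45, adjusted p 4.70e-08), while its relative Mertk did not pass (-0.34 ± 0.15, adjusted p 0.0945). Among Fc receptors, Fcgr2b, the inhibitory receptor, lay at 832, 654, 609.7, 831 and 1313 CPM and 423, 394 and 405 CPM (difference 1.08 ± 0.17), and Fcgr4 rose by 1.45 ± 0.29, whereas Fcgr1 and Fcgr3 did not pass (adjusted p 0.0542 and 0.0584). Stab1 (ENSMUSG00000042286, chr14 31139013 to 31168641, - strand), the scavenger receptor stabilin 1, lay at 133, 213, 287, 250.4 and 93.7 CPM and 326, 469 and 494 CPM, all 5 below WT (difference -1.20 ± 0.22, adjusted p 4.34e-05). Without replicates 38 and 41, the median of the C-type lectins turned from 0.67 to -0.22. Clec4e, a lectin of neutrophils and monocytes, lay at 1.28, 1.33, 4.32, 70.2 and 4.77 CPM in APPPS1, high only in replicate 38. Of 16 complement genes 3 rose and none fell. C1qa lay at 5139, 2909, 2451, 2744 and 5174 CPM and 2186, 2066 and 1938 CPM (difference 0.86 ± 0.19, adjusted p 0.000902) and its partners C1qb and C1qc did not pass (adjusted p 0.0588 and 0.135). C3 rose by 1.74 ± 0.46, from 2.89 to 8.87 CPM in WT to 6.72 to 42.6 CPM, with replicate 38 the highest and replicate 41 inside the WT range, a call lost without WT replicate 34.

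Inhibitory receptors rose and fell side by side. Of 26 genes 11 rose and 4 fell, with a median of 0.35. Pdcd1 (ENSMUSG00000026285, chr1 94038305 to 94052553, - strand), the checkpoint receptor PD-1, lay at 79.1, 69.8, 54.7, 55.3 and 85.2 CPM in APPPS1 and 3.62, 2.93 and 5.22 CPM in WT (difference 4.11 ± 0.44, adjusted p 1.12e-08). Lilrb4a, a receptor with inhibitory motifs, lay at 419.7, 518, 384, 631 and 242 CPM and 65.9, 143 and 99.6 CPM (difference 2.01 ± 0.33, adjusted p 8.73e-06). Lgals3, galectin 3, lay at 73.6, 42.6, 24, 67.1 and 59.2 CPM and 7.25, 7.45 and 9.74 CPM (difference 2.69 ± 0.37, adjusted p 3.95e-07). In these 3 genes the groups did not overlap. Among Siglecs, receptors of sialic acid, Siglecf lay at 80.7, 69.7, 74.2, 46.3 and 92.2 CPM and 24.2, 24.6 and 27 CPM (difference 1.52 ± 0.27, adjusted p 2.55e-05), and Cd22 rose by 1.13 ± 0.29. Siglece lay at 19.6, 22.4, 42.8, 44.9 and 37.9 CPM and 66.4, 73.7 and 71.1 CPM, all 5 below WT (difference -1.06 ± 0.21, adjusted p 0.00014), and Siglecg fell by 1.34 ± 0.30. Scaled by total counts alone, the median of the 7 Siglecs turned from 0.14 to -0.07. Vsir, Havcr2 and Sirpa did not pass.

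Growth factors rose in part and matrix genes more often. Of 28 genes 14 rose and 1 fell, with a median of 0.68. Among 13 growth factors 5 rose and none fell, with a median of 0.27. Among 15 genes of matrix and proteases 9 rose and 1 fell, with a median of 0.97. Vegfa, vascular endothelial growth factor A, lay at 31.3, 78.1, 19.8, 47.1 and 24.7 CPM in APPPS1 and 7.99, 10.8 and 6.17 CPM in WT, highest in replicate 36 (difference 2.15 ± 0.37, adjusted p 1.78e-05). Serpine2, a protease inhibitor, lay at 1897, 1705, 1428, 1474 and 2302 CPM and 568, 672 and 591 CPM (difference 1.53 ± 0.20, adjusted p 1.75e-07). Plaur, the urokinase receptor, lay at 199.6, 231, 130.3, 184 and 240.5 CPM and 50.5, 70.5 and 48.2 CPM (difference 1.77 ± 0.28). Mmp2, gelatinase A, fell by 0.59 ± 0.16, a call lost without WT replicate 39 or 40. Among 17 integrin chains 5 rose and 3 fell. Itga9 (ENSMUSG00000039115, chr9 118606690 to 118901003, + strand), a receptor of tenascin, lay at 39.7, 50.3, 83.1, 56.9 and 35.3 CPM and 100.4, 107 and 125 CPM (difference -1.11 ± 0.19, adjusted p 1.08e-05), and Itgb3, the beta 3 chain, lay at 79.3, 111, 101, 98.5 and 37.1 CPM and 36.2, 29.8 and 50.6 CPM (difference 1.05 ± 0.21), with replicate 41 inside the WT range. Itgam, the CD11b chain itself, lay at 493, 423, 438, 472 and 309 CPM and 400.02, 495 and 522 CPM (difference -0.15 ± 0.13). Itgal, of leukocytes, lay at 6.27, 5.41, 12.1, 62.8 and 1.73 CPM in APPPS1, highest in replicate 38, and its call was lost without APPPS1 replicate 38 or WT replicate 34 or 40.

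Of 16 amyloid processing genes of the mouse 5 rose and 1 fell, against 11.1% and 6.99% of all genes, with a median of 0.03. Aplp2 (ENSMUSG00000031996, chr9 31149557 to 31211815, - strand), a relative of APP, lay at 793, 736, 566, 530.3 and 601 CPM in APPPS1 and 242, 261 and 242 CPM in WT (difference 1.39 ± 0.21, adjusted p 1.62e-06). Bace1 (ENSMUSG00000032086, chr9 45838580 to 45864399, + strand), the beta-secretase, lay at 18.5, 18.9, 23.9, 13 and 9.76 CPM and 31.1, 25.7 and 29.3 CPM, all 5 below WT (difference -0.76 ± 0.14, adjusted p 5.91e-05). Lrpap1, an endoplasmic reticulum chaperone, rose by 1.23 ± 0.15, while the degrading enzyme Ide (0.07 ± 0.10) did not pass. In iron handling, Slc40a1 (ENSMUSG00000025993, chr1 45908068 to 45926523, - strand), the iron exporter ferroportin, lay at 229, 214, 229.6, 264 and 224 CPM and 452, 488 and 475 CPM, and all 5 libraries lay far below WT (difference -0.98 ± 0.13, adjusted p 2.57e-07). Fth1, ferritin heavy chain, lay at 4219, 3908, 3224, 3869.9 and 6530.1 CPM and 1791, 2021 and 1786 CPM (difference 1.23 ± 0.17, adjusted p 4.98e-07). Cybb (ENSMUSG00000015340, chrX 9435252 to 9487771, - strand), the catalytic chain of the phagocyte NADPH oxidase, lay at 152, 146, 183, 291 and 219 CPM and 36.4, 53.9 and 45.5 CPM (difference 2.13 ± 0.29, adjusted p 3.73e-07), with replicate 38 highest. Its partner Cyba rose by 0.84 ± 0.16, while the cytosolic subunits Ncf1 and Ncf4 did not pass. Gclc, of the rate-limiting enzyme of glutathione synthesis, fell by 0.61 ± 0.13 (adjusted p 0.0003), and Prdx1 and Gpx4 rose by 1.22 ± 0.17 and 0.96 ± 0.15.

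Targets of positron emission tracers for microglia did not share a direction. Tspo (ENSMUSG00000041736, chr15 83563592 to 83574203, + strand), the translocator protein, lay at 240.4, 133, 105, 156 and 261 CPM in APPPS1 and 47.4, 43.4 and 43.9 CPM in WT (difference 2.00 ± 0.23, adjusted p 1.57e-08). P2rx7 fell and P2ry12 and Csf1r did not pass, as given above, and Cnr2 rose by 0.47 ± 0.17, a call lost without APPPS1 replicate 35, 36 or 41 or WT replicate 34, 39 or 40. P2rx4, another ATP-gated channel, lay at 157, 153, 147, 144 and 216 CPM and 89.6, 103 and 89.8 CPM (difference 0.81 ± 0.11, adjusted p 6.36e-07), and P2ry6, a UDP receptor of phagocytosis, fell by 0.38 ± 0.11 (adjusted p 0.0104). Of 21 ion channels 4 rose and 2 fell. Kcnj2, the inward rectifier Kir2.1, lay at 281, 239, 185, 177 and 161 CPM and 53.7, 38.6 and 67.3 CPM (difference 1.96 ± 0.29, adjusted p 1.35e-06). Piezo1, a mechanosensitive channel, fell by 0.63 ± 0.17, a call lost without WT replicate 40.

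Genes of cell division rose from low levels. Of 38 genes 20 rose and none fell, with a median of 0.79, and 11 of 15 mitosis genes rose. Of the 20 rises 10 passed in every leave-out, 5 of them in mitosis, and 10 passed with the first title number added to the fit. The median of the mitosis genes over the WT mean was 1.61 in replicate 38, the library with the high neutrophil markers, and 0.71 to 1.05 in the other APPPS1 libraries, and without replicates 38 and 41 14 of the 38 genes rose. Ccnb1, cyclin B1, lay at 11.3, 8.01, 8.08, 15.1 and 10.4 CPM in APPPS1 and 2.08, 3.57 and 2.48 CPM in WT (difference 1.96 ± 0.36, adjusted p 4.86e-05). Mcm5, of the replicative helicase, lay at 24, 17, 19.8, 23.5 and 20.2 CPM and 9.93, 14.3 and 10.2 CPM (difference 0.90 ± 0.20), and Pcna rose by 0.56 ± 0.12. Cdkn1a, the inhibitor p21, rose too, at 114, 125, 87.5, 96.5 and 114 CPM and 53, 76.4 and 46.2 CPM (difference 0.82 ± 0.18, adjusted p 0.000726). The D cyclins Ccnd1 and Ccnd3 did not pass. Of 16 clock genes 5 fell and 1 rose, with a median of -0.60. Bhlhe40, a repressor of the clock that is also induced in activated cells, lay at 73.1, 80.5, 57.3, 64.3 and 91.3 CPM and 16.4, 18.9 and 16.7 CPM (difference 2.03 ± 0.33, adjusted p 6.65e-06). Hlf, an output factor, lay at 5.7, 5.67, 5.82, 6.72 and 1.95 CPM and 14.1, 12.9 and 18.1 CPM (difference -1.57 ± 0.31, adjusted p 0.000156), lowest in replicate 41, while Clock and Nr1d2 did not pass. Without replicates 35 and 41, 1 of the 16 clock genes fell and 1 rose. Times of day of sampling are not given in the sources used here.

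Of 34 stress genes 6 rose and 1 fell, near the 11.1% and 6.99% of all genes, with a median of 0.04. Sdf2l1, an endoplasmic reticulum chaperone partner, lay at 205, 164, 122, 135 and 219 CPM in APPPS1 and 60.3, 86.1 and 71.7 CPM in WT (difference 1.23 ± 0.16, adjusted p 2.11e-07), whereas the chaperone Hspa5 (0.21 ± 0.13) and the factors Xbp1 (0.02 ± 0.09) and Atf4 (0.20 ± 0.13) did not pass. Of 23 early response genes, which handling of cells can induce, 1 rose and none fell. Fos lay at 1972, 2555, 2393, 2277 and 1790.4 CPM and 3194, 2655 and 2264 CPM (difference -0.29 ± 0.38), and Ier3 at 331, 435, 217, 261 and 322 CPM and 126, 175 and 136 CPM (difference 1.08 ± 0.24, adjusted p 0.000626). Of 17 cell death genes 6 rose and none fell. Pmaip1, the death gene NOXA, lay at 169, 201, 113, 202 and 159 CPM and 55.7, 85.8 and 87.5 CPM (difference 1.15 ± 0.23, adjusted p 0.000146), and Bid, Bmf and Bcl2l11 did not pass. Of 7 replication-dependent histone genes 2 rose, and none without replicates 35 and 41.

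The difference between APPPS1 and WT was compared with that at 6 months by the difference of the 2 differences, for which the ages have separate WT libraries (5 WT and 4 APPPS1 libraries at 6 months). APPPS1 replicate 21 of 6 months held 659 counts, and it stayed in the fit but is left out of the levels below. The other 6-month libraries were female, as were those of 12 months. The difference of differences passed for 165 genes (0.831%), 85 of them with a higher and 80 with a lower APPPS1 minus WT value at 12 months. With the first title number added to the fit 0 genes passed, and without the second title number 7. The number also rests on single libraries, with 0 genes without APPPS1 replicate 22 of 6 months and 935 without APPPS1 replicate 37 of 12 months. At 6 months itself 609 genes passed (3.07%), 413 higher and 196 lower. Ifitm2 (ENSMUSG00000060591, chr7 140954837 to 140955987, - strand), an antiviral membrane protein, lay at 24.1, 16.1, 14.3, 55.2 and 24.1 CPM in APPPS1 and 6.78, 7.61 and 6.48 CPM in WT at 12 months, and at 8.38, 9.61 and 11.4 CPM and 10.9, 11.7, 10.6, 14.1 and 9.86 CPM at 6 months. APPPS1 lay above WT at 12 months and overlapped it at 6 months. The difference of differences was 2.06 ± 0.38 (adjusted p 0.0308), and it passed in 16 of 17 leave-outs, the exception being without APPPS1 replicate 22 of 6 months. Ccl4 (ENSMUSG00000018930, chr11 83662584 to 83664683, + strand), a chemokine of myeloid cells, lay at 3749, 3341, 2137, 2292 and 4026 CPM and 1126, 993 and 1066 CPM at 12 months and at 1039.5, 1416 and 1123 CPM and 1023, 1032, 1318, 984 and 1234 CPM at 6 months (difference of differences 1.55 ± 0.33, adjusted p 0.0361, passing in 10 of 17 leave-outs). Crip1 (ENSMUSG00000006360, chr12 113146316 to 113153879, + strand), a LIM protein, and Anxa2 (ENSMUSG00000032231, chr9 69453620 to 69491795, + strand), annexin A2, differed by 2.25 ± 0.33 and 1.99 ± 0.31 at 12 months and by 0.20 ± 0.30 and 0.06 ± 0.28 at 6 months. Their differences of differences were 2.05 ± 0.44 and 1.93 ± 0.41 (adjusted p 0.0361 and 0.0361), passing in 10 and 9 of 17 leave-outs. Ifitm3 and Ccl3 were the others of the 6 named by rule, at 2.03 ± 0.40 and 1.59 ± 0.32.

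The 6 genes named for a lower APPPS1 minus WT value at 12 months include several best known from neurons, among them Sv2b and Syp of synaptic vesicles, Atp2b2, a calcium pump, and Adam22, a synaptic receptor. The other 2 were Dmtn, which binds actin, and Rtn1, a reticulon. Sv2b (ENSMUSG00000053025, chr7 75114894 to 75309262, - strand) lay at 1.28, 1.43, 2.82, 2.82 and 3.25 CPM in APPPS1 and 12.1, 7.66 and 1.56 CPM in WT at 12 months and at 13.1, 12.8 and 8.08 CPM and 3.14, 0.947, 0.631, 3.01 and 2.73 CPM at 6 months (difference of differences -4.40 ± 0.91, adjusted p 0.0361). Syp lay at 8.12, 5.57, 8.39, 9.21 and 2.39 CPM and 20.7, 17.1 and 11.3 CPM at 12 months (difference of differences -2.76 ± 0.62). Each of the 6 passed in 7 to 10 of 17 leave-outs. Neuronal marker genes summed to 18.7 to 117 CPM in APPPS1 and 34.4 to 264 CPM in WT at 12 months, and to 178 to 468 CPM in APPPS1 and 38.7 to 204 CPM in WT at 6 months. Their part in these values was not tested. Among the gene groups above, 2 of 46 interferon genes (Ifitm3 and Xaf1), 3 of 33 presentation genes (H2-K1, H2-Q4 and H2-T23), 6 of 35 cytokine genes (Osm, Ccl3, Ccl4, Cxcl10, Ccrl2 and Cxcr4) and 3 of 23 ribosomal protein genes (Rpl8, Rpl10 and Rpsa) had a higher value at 12 months, against 0.428% of all genes. So did Il1b of 22 inflammasome genes, Bcl2a1b of 23 NF-kappaB genes, Fcer1g of 47 recognition genes and Itgal of 17 integrins. Atp6v0e of 57 lysosomal genes, Cdkn1a of 38 cell division genes and 1 of 20 oxidant genes did as well. H2-Q4, Xaf1, Rpl8, Rpl10, Il1b, Fcer1g and Atp6v0e are named after their values were seen. These 11 groups are given because each held such a gene, and none of their genes had a lower value. The lipid, cholesterol, glycolytic and respiratory chain groups held no gene past this test in either direction. At 6 months itself 0 of the 46 interferon genes passed, and of the 33 presentation genes 1 rose and 1 fell, against 2.08% and 0.987% of all genes. Among the 23 early response genes, which handling of cells can induce, 0 rose and 8 fell at 6 months, with a median of -0.80. None of them had a difference of differences past the test, and its median was 0.71. The part of handling in the values of this comparison was not tested. No plaque-associated gene passed the test of the difference, and 23 of the 28 rose at 6 months. Tspo (2.00 ± 0.23 at 12 and 0.63 ± 0.21 at 6 months) and Bace1 (-0.76 ± 0.14 and 0.04 ± 0.14) passed it too, in opposite directions (adjusted p 0.0361 and 0.0428, passing in 10 and 5 of 17 leave-outs).

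The same difference in the Mxo4-tagged libraries of 12 months, 4 APPPS1 and 3 WT, passed for 1014 genes (5.1%), 683 higher (3.44%) and 331 lower (1.67%). Sex differed within the tagged set, where APPPS1 replicates 56, 57 and 59 and WT replicate 61 were male by the genes named above, and its part was not tested. The test of the difference between the untagged and the tagged pair passed for 1 gene (0.00503%), the RIKEN clone 4833420G17Rik (ENSMUSG00000062822, chr13 119462768 to 119486120, + strand), which lay at 28.1, 29.1, 46.8, 38.6 and 53.3 CPM in APPPS1 and 35, 80.5 and 85.8 CPM in WT without the tag, and at 70.6, 79, 55.6 and 51 CPM and 49.6, 35.3 and 30.6 CPM with it. Its difference of differences was -1.52 ± 0.26 (adjusted p 0.0105), a call lost without WT replicate 39 or 40 or tagged WT replicate 61 or 62. DESeq2 called 15 genes, and 1937 had an unadjusted p under 0.05 in edgeR. Tagged APPPS1 replicate 56 had the plaque-associated gene Cst7 at 10.9 CPM, against 1648 to 2395 CPM in the other 3 tagged APPPS1 libraries and 11.5 to 33.9 CPM in tagged WT, which goes against its label. Without it the test passed for 4 genes, and the tagged comparison itself passed for 1324 higher and 1212 lower genes. Its values are included below unless stated. Of genes with a symbol and no call, the smallest p were those of Ifi30, a thiol reductase of antigen processing, at 0.49 ± 0.14 without and -0.52 ± 0.15 with the tag (adjusted p 0.0501), and Ccl12, a monocyte chemokine, at 1.22 ± 0.24 and -0.39 ± 0.24 (adjusted p 0.0661). Side by side, the median differences without and with the tag were 2.05 and 1.31 for plaque-associated genes, 1.38 and 0.71 for interferon effectors, 1.54 and 0.74 for ribosomal protein genes and 0.60 and 0.29 for lysosomal genes. Without tagged replicate 56 the tagged medians were 1.63, 0.98, 0.92 and 0.43. None of the genes in these lists passed the test of the difference between the untagged and the tagged pair.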

How the data were processed

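RNA-seq gene counts of CD11b+ brain cells were deposited by the authors as raw counts for 53801 mouse genes in 62 libraries. Per the submitters' processing notes, Trimmomatic, TopHat and HTSeq were used with the genome mm10. Versions, annotation, strand setting and the treatment of shared reads are not given in the sources used here, so overlapping and antisense genes cannot be told apart from their partners. Coordinates and transcript lengths come from the GENCODE vM21 annotation of the same build.

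All 62 libraries were fitted in edgeR 4.0.16 (R 4.3.3) with TMM size factors, 1 term per group and the second title number as a covariate. Genes were kept by filterByExpr (minimum count 10, minimum total 15), which left 19865. Standard errors are the absolute log2 difference over the square root of F. Libraries under 100000 counts stayed in the fit and out of group means. Tables and plots were made with Python 3.11, pandas 2.3.3 and matplotlib 3.10.9. The fit was tested on simulated data.

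Members and gene lists were chosen with earlier results of these data known. Beside the check genes App, Prnp, Thy1 and Nlrp3, genes were named by rule: up to 15 largest changes in each direction among genes past the test that averaged 10 CPM or more in the group where they were higher, with no overlap with WT and a call in every leave-out. For each role of a list these were the 3 smallest adjusted p in each direction and up to 3 uncalled genes of highest level. For each difference of differences they were up to 6 genes of smallest adjusted p in each direction with at least 10 CPM in a group, or the 3 of smallest p where none passed. Not all genes named by rule are described, and some are not reported here. Alternatives were other size factors, DESeq2 1.42.0, other filters and covariates, fewer libraries, each library left out, and, chosen after seeing the data, total counts, removal of the length trend and omission of APPPS1 replicates 35 and 41.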

Additional observations from a re-analysis of the deposited data

Results flagged for a closer look

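A single library stood away from the other 4 APPPS1 libraries of 12 months in 32 of 292 values examined (11%), which were the levels of the genes named, 4 measures of library quality and the marker sums. Chance gives about 1 such group in 20, and genes of 1 library are not independent. The WT group of 3 libraries was too small for this test. Replicate 41, the shallowest library, was the highest for Atf4 (353 CPM), Ctsc (2182 CPM), Cyp51 (90.9 CPM), Fcgr1 (432 CPM), Fcgr3 (3321 CPM), Irf9 (158 CPM), Nr1d2 (130.5 CPM), P2rx4 (216 CPM), Tmem173 (428 CPM) and the sum of microglial markers (43629 CPM). It was the lowest for App (171 CPM), Hlf (1.95 CPM), Kdm3a (95.8 CPM), Pik3cg (216 CPM) and Tap2 (29.3 CPM). Of these, Cyp51, Irf9, P2rx4, Tmem173 and Hlf passed the test, each without overlap between the groups. Replicate 38 was the highest for Clec4e (70.2 CPM), Dgat2 (13.5 CPM), Ifitm2 (55.2 CPM), Il1r2 (37.6 CPM), Itgal (62.8 CPM) and the sum of neutrophil markers (2847 CPM), and the lowest for Dcstamp (8.07 CPM). The part of the neutrophil markers in these values was not tested.

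Replicate 36 was the highest for Ccr6 (81 CPM) and Klf2 (676 CPM) and the lowest for H2-Eb1 (30.4 CPM) and H2-K1 (1098 CPM), which still lay above all WT libraries for H2-K1. Replicate 35 was the highest for Btla (31.7 CPM) and the lowest for Ptgs1 (699 CPM) and Tlr5 (5.06 CPM). Replicate 37 was the highest for Atp2b2 (7.26 CPM) and the sum of oligodendrocyte markers (377 CPM) and the lowest for Tnfsf9 (51.5 CPM). In WT the oligodendrocyte markers summed to 714 CPM in replicate 39, against 159 and 178 CPM in replicates 34 and 40. The neuronal markers summed to 264 CPM in WT replicate 39, against 147 and 34.4 CPM in 34 and 40.

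The difference between APPPS1 and WT differed between 12 and 6 months, by the edgeR test of the difference itself, for 31 genes named above. Interferon-induced membrane proteins (Ifitm2 2.06, Ifitm3 2.03), ligands and receptors of chemokine and cytokine signals (Ccl3 1.59, Ccl4 1.55, Cxcl10 1.24, Osm 1.10, Ccrl2 1.59, Cxcr4 2.48) and class I chains (H2-K1 1.05, H2-Q4 1.14, H2-T23 0.92) had a higher APPPS1 minus WT value at 12 months (log2 difference of differences in brackets). So did Il1b (1.89), Bcl2a1b (1.46), Fcer1g (0.87), Itgal (3.41), Atp6v0e (0.91), Cdkn1a (1.13), Crip1 (2.05), Anxa2 (1.93), Xaf1 (1.36), Tspo (1.37) and the ribosomal protein genes Rpl8 (1.01), Rpl10 (0.97) and Rpsa (1.07). Genes best known from neurons had a lower one, namely Sv2b (-4.40), Syp (-2.76), Atp2b2 (-3.07) and Adam22 (-1.38), and so did Dmtn (-1.74), Rtn1 (-1.01) and Bace1 (-0.80). All 31 calls were lost without APPPS1 replicate 22 of 6 months, with the first title number added to the fit and within second title number 1, and 5 of the 31 passed without the second title number. Between untagged and tagged libraries the difference of 4833420G17Rik was the only one that passed (-1.52).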

How the results depend on the processing

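No paired analysis was possible because no replicate number is shared between libraries. Of the 3601 genes called between APPPS1 and WT, the number moved by over 1.5 times to 5767 with total counts alone, 2268 with the first title number added to the fit, 1959 with only the groups compared, 581 within second title number 1, 2318 without APPPS1 replicates 38 and 41 and 1711 without replicates 35 and 41. The last 3 use fewer samples, as does the fit of only the groups compared, and for the others the cause was not tested. The first title number was 2, 7, 4, 2 and 8 in APPPS1 replicates 35, 36, 37, 38 and 41. In WT replicates 34, 39 and 40 it was 3, 6 and 5, so the groups share no value. Within the 8 libraries it cannot be told apart from genotype, and the fit that adds it leans on libraries of other groups. With 1 library left out the numbers were 2609 to 4630. Of the 194 genes named as rising or falling, 193 kept the call with DESeq2, 192 with relative log expression size factors, 186 with the length trend removed, 187 with total counts alone, 166 without replicates 35 and 41, 182 within second title number 2 and 110 within number 1. Within number 1, with 1 WT library assumed to vary like the others, Sv2b turned to 0.58 without a call. Xbp1, without a call, turned to a call of -0.22 with total counts alone.

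Of the 165 genes called between 12 and 6 months the number became 423 with DESeq2, 303 without a low-count filter, 7 without the second title number, 0 with the first title number added, 0 within second title number 1, 1309 within number 2, 0 without replicates 38 and 41, 86 with the length trend removed and 5 without replicates 35 and 41. With total counts alone 22 were higher and 119 lower, against 85 and 80. With 1 library left out it was 0 to 935. For the 1 gene called between untagged and tagged libraries the number became 15 with DESeq2, 12 without a filter, 2 with a minimum count of 50, 2 without the second title number, 5 with the first title number, 0 with only the groups compared, 1163 within number 2, 2 without replicates 35 and 41 and 0 to 49 with 1 library left out. Counts of 0 in the edgeR fits do not show that the differences were equal. The shallowest library here, APPPS1 replicate 41 with 6187249 counts, limits genes of low level most.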
